A study of Mus musculus with 37 samples.

Results

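The comparison described here is of spread and not of means: how far the RNA levels of single arrays lay from the mean of their own group in C57 mice, and how far in 129 mice. All 37 arrays of the series were members, 18 from C57 and 19 from 129. Each array held RNA from the temporal lobe of a mouse, dissected under a microscope, frozen and hybridised as biotin-labelled cRNA to an Affymetrix mouse expression array. The groups were 9 C57 WT (wild type), 9 C57 KO (genotype label WFS1 KO), 9 129 WT and 10 129 KO. The strain labels read C57 and 129SV, while the series design names the same backgrounds C57B6 and 129S6. The labels used here do not state the KO allele, the number of backcrosses, age, sex, litter or hybridisation day. They also do not say that each array had an animal of its own, so p-values measure the spread between these arrays, which may be partly technical. Arrays are named by group and by the number in their title, as in C57 KO 10.

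Mice of an inbred strain carry nearly the same genome, so the spread of a transcript among them takes in age, hour of day, dissection, cell make-up, measurement, and any loci at which a stock is not yet uniform. A transcript can spread evenly around its mean, or its arrays can fall into separate levels with empty gaps between them. Galc, Serpina3n and Cap1 were picked for this description because earlier results of these arrays showed such gaps, so their levels and p-values are given as a description. Galc encodes galactosylceramidase, the lysosomal enzyme that breaks down the main galactolipids of myelin. Serpina3n encodes a secreted inhibitor of serine proteases that reactive astrocytes make. Cap1 encodes a cyclase-associated protein that speeds the recycling of actin monomers.

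All values are log2 signals as deposited. The genotype label was checked first. Wfs1, which encodes the endoplasmic reticulum membrane protein wolframin, lay between 2.64 and 3.60 in the 19 KO arrays of both strains and between 9.11 and 9.73 in the 18 WT arrays, with no overlap. Within groups its SD was 0.223 in C57 and 0.219 in 129. Xist lay between 3.98 and 4.92 in the 37 arrays and the Y-linked Eif2s3y between 5.84 and 7.04, so neither divided the arrays by sex. All 16 neuronal marker genes on the arrays, among them Snap25 and Gad1, passed the filter on low signals.

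Most genes had the smaller spread in C57. A gene's within-group SD was pooled over the WT and KO arrays of a strain, with 16 degrees of freedom in C57 and 17 in 129. The median of this SD over the 13078 genes tested was 0.145 in C57 and 0.167 in 129, and the SD was larger in C57 for 34.9% of genes. The median ratio of the SDs, C57 over 129, was 0.879. The ratio was above 2 for 206 genes and below 0.5 for 731.

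A few 129 arrays held much of the spread on that side. The distance of an array from its group mean, as the root mean square deviation over all genes tested, ran from 0.154 over a median of 0.169 to 0.198 in C57 WT, and from 0.167 over 0.182 to 0.245 in C57 KO. It ran from 0.129 over 0.141 to 0.276 in 129 WT, where array 73 stood alone above 0.159. In 129 KO it ran from 0.151 over 0.167 to 0.346, with arrays 59, 57 and 53 highest. The mean distance was 0.182 ± 0.0232 (SD, n = 18) in C57 and 0.180 ± 0.0581 (SD, n = 19) in 129, a difference of 0.00158 (2-sided permutation test, p = 0.918). Within WT arrays the difference was 0.0151 (2-sided exact permutation test, p = 0.416) and within KO arrays -0.00970 (p = 0.719, same exact test). Without the 4 arrays farthest from their group means, which are 129 WT 73, 129 KO 57 and 59 and C57 KO 10, the difference was 0.0209. These arrays were picked after their distances were seen, and 3 of the 4 are from 129, so this rise follows in part from the choice and has no test. The SD was larger in C57 for 53.3% of genes without them. Array 129 WT 73 also had the highest 3' minus 5' difference of the actin control probe sets, 2.76 on the log2 scale against 0.908 to 1.94 in the other arrays. The part of RNA quality in these distances was not tested.

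**Figure D1:**
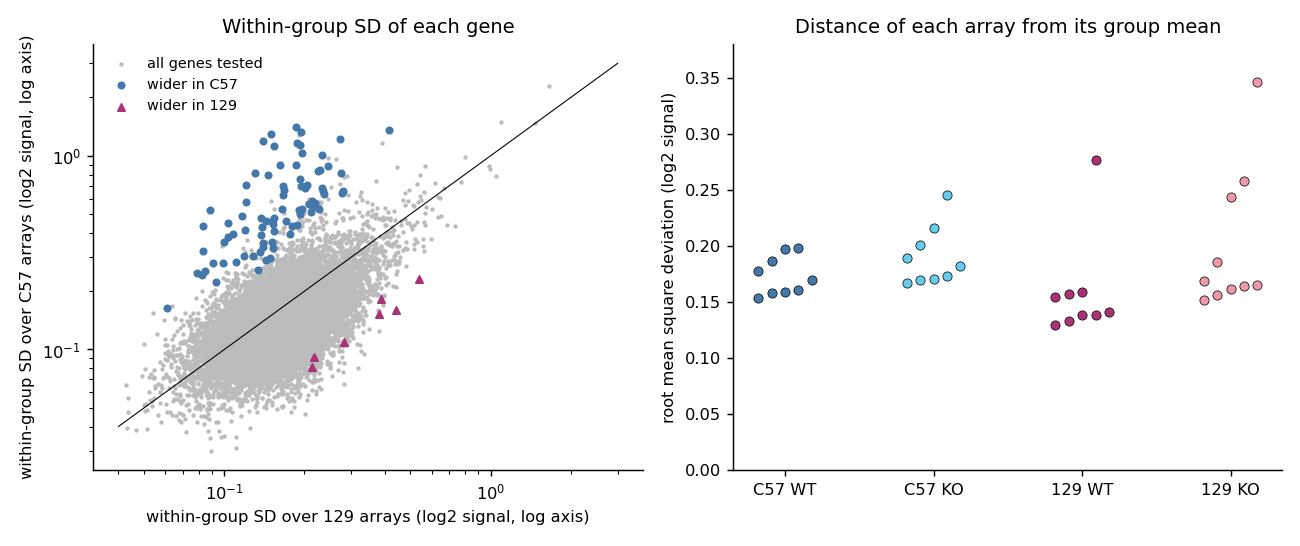
Left, the within-group SD of each of 13078 genes over the 18 C57 arrays against that over the 19 129 arrays, in log2 signal on log axes, with equal SDs on the line; the 82 genes wider in C57 lie above it and the 7 wider in 129 below it. Right, the distance of each array from its group mean as a root mean square deviation in log2 signal; 129 WT 73 at 0.276 and 129 KO 59 at 0.346 stand highest in their groups.

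Against that background a small set of genes was far wider in C57. Spread was tested gene by gene with limma on the absolute deviation of each array from its group mean, scaled for group size, and p-values were adjusted over all genes tested. Of the 13078 genes, 82 were wider in C57, which is 0.627%, and 7 were wider in 129, which is 0.0535%. At an unadjusted p under 0.05 there were 1268 genes in both directions together. The SD of the 82 genes had a median of 0.526 in C57 and 0.154 in 129, and the SD ratio ran from 1.92 over a median of 3.10 to 8.68. For the 7 genes wider in 129 the medians were 0.152 in C57 and 0.380 in 129. The count moved with the form of the test. Deviations from the group median in place of the mean left 8 genes, and squared deviations left 21, all of them among the 89. With the median, the calls of Serpina3n (limma adjusted p = 0.138), Cap1 (0.515), Xaf1 (0.138), Tmem267 (0.0984), Rab39b (0.257), Gdpd3 (0.681) and Rpgrip1 (0.224) were lost, as were those of Mir1931 (0.324), Nmnat1 (0.0504) and Cthrc1 (0.295), and those of Ang and Rbp7 were kept. With squared deviations the calls of Cap1 (0.192), Gdpd3 (0.362), Mir1931 (0.0733) and Nmnat1 (0.0514) were lost. A direct ratio of variances gave 138 genes wider in C57 and 319 wider in 129.

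Galc lay on 3 levels in C57. In C57 WT its lowest, median and highest signals were 2.85, 5.79 and 6.97, and in C57 KO 2.60, 5.84 and 7.05. In 129 WT they were 2.65, 2.97 and 3.14, and in 129 KO 2.63, 3.03 and 3.34. Split at every gap of at least 0.5 between neighbouring arrays, the 18 C57 arrays formed a low level of 2 arrays at 2.60 and 2.85, a middle level of 8 arrays from 5.26 to 5.84, and a high level of 8 arrays from 6.43 to 7.05. The low pair, C57 KO 2 and C57 WT 28, lay within or just below the range of the 19 arrays of 129. The middle and the high level each held 4 WT and 4 KO arrays. The SD was 1.29 in C57 and 0.191 in 129. Galc was not among the 82 genes: its difference in mean absolute deviation was 0.71 ± 0.22 (SE), with a limma adjusted p of 0.167. The result depended on the form of the test. Galc passed a direct ratio of variances (adjusted p = 3.71e-07), and permutation within genotype gave an unadjusted p of 0.00021 (2-sided permutation test). Because Galc was picked for its gaps in these same arrays, its p-values are description and no support for a wider spread. Galc was also called by limma when the array sets described with the clock genes were centred apart (adjusted p = 0.0413), but not with the median as centre (0.383) or with squared deviations (0.682). Its 129 mean of 2.97 was below the filter on low signals (3.60), so it was tested only through C57. Its other probe sets were dimmer or flat: at mean signals of 3.94 and 1.97 they had SDs of 0.281 and 0.109 in C57 and 0.179 and 0.150 in 129.

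Serpina3n also lay on 3 levels in C57, in the reverse order. Its lowest, median and highest signals were 5.04, 7.46 and 8.43 in C57 WT and 5.20, 7.43 and 8.49 in C57 KO. They were 7.98, 8.24 and 8.42 in 129 WT and 8.10, 8.27 and 8.64 in 129 KO. The levels held 7 arrays from 5.04 to 5.61, 9 arrays from 7.38 to 7.77, and 2 arrays at 8.43 and 8.49. This top pair was again C57 KO 2 and C57 WT 28, and it lay within the range of 129. The SD of 1.30 in C57 was 8.68 times the 0.149 of 129, the highest ratio of all genes tested. The difference in mean absolute deviation was 1.10 ± 0.10 (SE; limma adjusted p = 1.89e-09).

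The levels of both genes were set side by side, since both lie on chromosome 12. The 2 arrays lowest for Galc were the 2 highest for Serpina3n. Of the 8 arrays on the middle level of Galc, 7 were on the middle level of Serpina3n and 1, C57 KO 7, on its low level. Of the 8 on the high level of Galc, 6 were on the low level of Serpina3n and 2 on its middle level. Over the group-centred values the Pearson correlation was -0.70 in the 18 C57 arrays and 0.33 in the 19 129 arrays, and the C57 value rests on separate clusters of arrays. Chromosome 12 held 1 of the 82 genes among its 476 genes tested, Serpina3n (0.210%, against 0.627% of all genes tested).

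Cap1, on chromosome 4, divided the arrays differently. Its lowest, median and highest signals were 6.77, 8.54 and 9.41 in C57 WT, 5.64, 8.67 and 9.50 in C57 KO, 9.10, 9.45 and 9.56 in 129 WT, and 9.07, 9.36 and 9.78 in 129 KO. In C57, 5 arrays lay between 5.64 and 7.00, 10 between 8.48 and 8.83, and 3 between 9.33 and 9.50, the last within the 129 range. The 5 low arrays were 2 WT and 3 KO. Its SD was 1.14 in C57 and 0.192 in 129, and the difference in mean absolute deviation was 0.79 ± 0.13 (SE; limma adjusted p = 0.000526). The correlation of Cap1 with Galc over the C57 arrays was 0.041 and with Serpina3n 0.031, so the 3 genes did not share 1 division of the arrays.

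**Figure D2:**
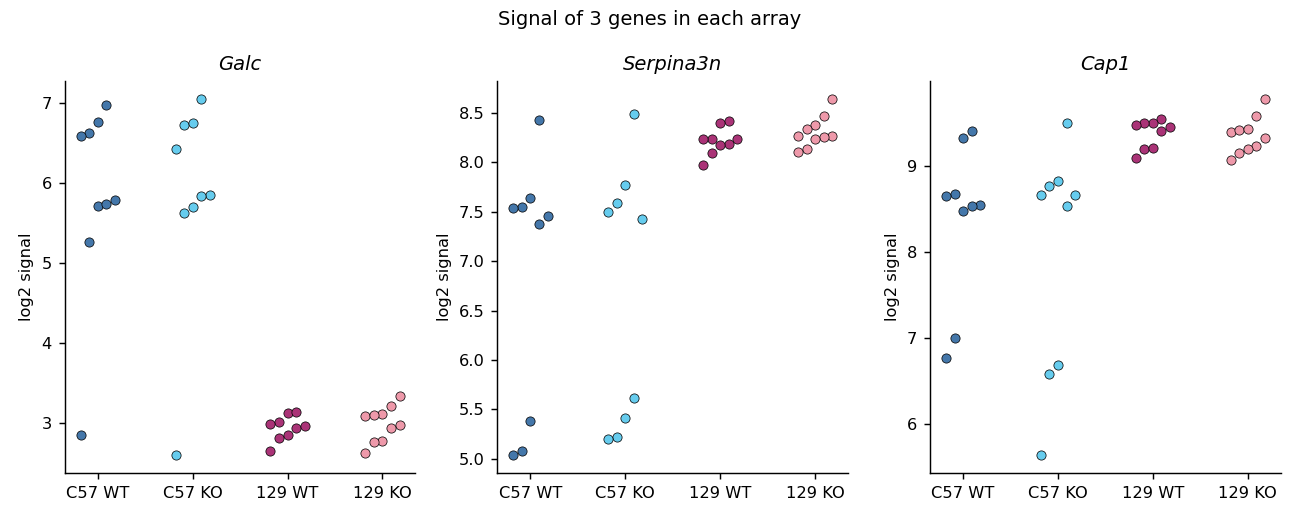
Signal (log2) of Galc, Serpina3n and Cap1 in each array, by group. In C57 the arrays of both genotypes fall into levels with gaps between them, while Galc lies between 2.63 and 3.34 and Serpina3n between 7.98 and 8.64 in all 129 arrays.

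Some of the genes most like these 3 over the C57 arrays were on the same chromosome, and more were on others. Chromosome 12 held 476 and chromosome 4 held 806 of the 13078 genes tested. For Galc they were Trip11 (Pearson r of group-centred values 0.75), Tmem121 (0.74), Maf (0.74), Rpp14 (0.73) and Dmrta2 (0.67), of which Trip11 and Tmem121 are also on chromosome 12. For Serpina3n they were Esyt2 (0.84), on chromosome 12, then Caml (0.72), Gzmk (0.71), Gorasp1 (0.70) and Coq3 (0.69), on other chromosomes. For Cap1 they were Ebna1bp2 (0.87) and Ptp4a2 (0.85) on chromosome 4, Dda1 (0.84) on chromosome 8, Ppt1 (0.79) on chromosome 4 and Pccb (0.77) on chromosome 9. Over the 129 arrays these 15 correlations lay between -0.56 and 0.50. The 15 genes were picked as the highest over C57 among all genes tested, so weaker values over 129 follow in part from the choice.

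Genes related to these 3 by function were then set beside them. Of 13 tested genes of lysosomal sphingolipid breakdown, none was called by limma in either direction, Galc included, and 3 had the larger SD in C57, Galc with the largest ratio. Psap, whose product is cut into activators of these enzymes, had SDs of 0.0458 in C57 and 0.0698 in 129. Of 3 tested genes of the Serpina cluster only Serpina3n was wider in C57, and Serpina9 and Serpina11 had SD ratios of 1.06 and 0.988. Of 23 genes of actin filament turnover Cap1 alone was wider in C57. Its relative Cap2 had SDs of 0.110 and 0.162, and cofilin (Cfl1) 0.0514 and 0.0829. Serpina3n is also in the list of reactive glia, where the other 12 tested genes were not called, Gfap with an SD ratio of 0.981. With 0.627% of all genes tested called wider in C57, lists this short would rarely hold a further call.

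Gaps of this kind were counted over all genes. A gene was counted as having 2 levels in a strain when some gap of at least 1 log2 unit left 2 or more arrays on each side and the sides were not simply the genotypes. This held for 23 genes in C57, which is 0.176%, and for 3 in 129, which is 0.0229%. At a gap of 0.75 the counts were 38 and 6, and at 1.5 they were 11 and 0. Of the 23 genes, 12 were among the 82 wider in C57, and 16 had WT and KO arrays on both sides of the gap. In 15 of the 23, the mean of 1 side lay within 0.5 of the 129 mean, and in 10 of these it was the side with fewer arrays. Among the 15, the 129 means of Galc, Mir1931, 2010315B03Rik, Cthrc1, Tmem267 and Zfp874a were below the filter on low signals. They ran from 2.32 for Mir1931 to 3.26 for 2010315B03Rik, and the near side was the lower one in each. The part of low signal in this nearness was not tested, and no share of other genes was set beside the 15. In 129 the 3 genes were Gprin3, Avp and Ttr. Gprin3 was also used to divide the groups by sample number, as given with the clock genes, so a match of its sides to that division was set by the choice of gene. The counts fell to 8 in C57 and 1 in 129 when the array sets of that division were each centred on their own mean. The sides were the array sets themselves in 2 of the 23 genes, Gprin3 and Pde1a. Centring small sets that hold unequal shares of the levels also moves arrays of 1 level apart. The fall is therefore no count of genes that followed the sets.

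Xaf1, an interferon-induced antagonist of an apoptosis inhibitor, had the largest difference in mean absolute deviation, 1.16 ± 0.10 (SE; limma adjusted p = 4.99e-10). Its lowest, median and highest signals were 2.50, 3.55 and 5.94 in C57 WT and 2.70, 3.17 and 6.08 in C57 KO. In 129 it lay between 5.98 and 6.59. The C57 arrays formed a low level of 11 from 2.50 to 3.71 and a high level of 7 from 5.34 to 6.08, so the upper 7 lay just below the 129 range, except for C57 KO 2 at 6.08, which was inside it. Of 14 tested interferon-stimulated genes, Xaf1 was the only one called, where 0.627% of all genes were called wider in C57. The SD was larger in C57 for 28.6% of the 14, against 34.9% of all genes. The second Xaf1 probe set, with a mean signal of 3.17, had SDs of 0.180 in C57 and 0.169 in 129.

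Tmem267, a transmembrane protein gene of chromosome 13, showed the opposite placing, with 129 at the low level. In C57, 7 arrays (4 WT, 3 KO) lay between 2.66 and 3.18 and 11 between 4.34 and 5.34, while all 129 arrays lay between 2.46 and 3.07. Its SDs were 1.13 and 0.154, and the difference in mean absolute deviation was 0.94 ± 0.08 (SE; limma adjusted p = 7.17e-10). Its 129 mean of 2.79 was below the filter on low signals, so it was tested only through C57, where it is high, and its 129 SD is that of a low signal. Rab39b, an X-linked gene for a Rab GTPase of neurons, had only 2 levels, 10 arrays from 5.98 to 6.77 and 8 from 8.23 to 8.52. The 129 arrays lay between 7.81 and 8.83. Its difference was 0.84 ± 0.07 (SE; limma adjusted p = 3.42e-10), but a second Rab39b probe set of like brightness (mean signal 7.31) had SDs of 0.115 and 0.0912. The 2 probe sets of Rab39b therefore disagreed, and the wide one alone carries this call.

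Not every low level lay where 129 lay. Gdpd3, a lysophospholipase D of the endoplasmic reticulum, had 4 C57 arrays between 3.36 and 3.61 and the other 14 between 5.54 and 7.27, while all 129 arrays lay higher, between 7.34 and 8.21. Sdc4, a heparan sulphate proteoglycan of the cell surface, was at 5.21 and 5.33 in C57 KO 2 and C57 KO 7 and at or above 7.41 in the other C57 arrays; in 129 it lay between 7.62 and 8.63. Its limma adjusted p was 0.0627 (0.00244 with array sets centred apart). A second Sdc4 probe set (mean signal 5.41) had an SD ratio of 1.49 and a correlation of -0.40 with this one over C57. Kcnj9, a subunit of inwardly rectifying potassium channels, lay at or below 6.67 in 3 C57 arrays and at or above 8.17 in the other 15. In 129 it lay between 8.44 and 9.43. For its spread the limma adjusted p was 0.151, and 0.00943 with array sets centred apart. The other Kcnj9 probe sets, all dimmer, had SD ratios of 0.823 to 1.17. Their correlations with the brightest one over C57 ran from -0.59 to 0.81. Ttr, which encodes the thyroxine carrier transthyretin of choroid plexus, reached 13.0 in C57 WT and 12.8 in 129 WT from medians of 6.35 and 7.12. Its spread difference between strains did not pass the test (0.62 ± 0.43 SE; limma adjusted p = 0.640), and the summed choroid plexus markers were highest in C57 WT 34 and 129 WT 72.

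Nmnat1, a nuclear enzyme of NAD synthesis, and Rbp7, a retinol binding protein, lie side by side among the tested genes of chromosome 4 and shared their low arrays. For Nmnat1, 5 C57 arrays lay between 3.62 and 4.12, and all 129 arrays lay between 3.50 and 4.55. The same 5, C57 KO 2 and C57 WT 29, 33, 37 and 42, were the low arrays of Rbp7, at 2.28 to 2.63 against 2.15 to 2.78 in 129. The differences in mean absolute deviation were 0.74 ± 0.15 (SE; limma adjusted p = 0.00423) for Nmnat1 and 0.63 ± 0.09 (SE; limma adjusted p = 1.18e-05) for Rbp7. The call of Nmnat1 was lost with the median as centre (limma adjusted p = 0.0504) and with squared deviations (0.0514). Both probe sets of Nmnat1 were wide, with SD ratios of 4.51 and 6.36. Cthrc1, a secreted collagen-associated protein, had 6 C57 arrays from 2.81 to 3.09, where 129 lay between 2.67 and 3.54, and 12 higher ones from 4.33 to 5.75 (limma adjusted p = 9.41e-05, and 0.295 with the median as centre). The 129 means of Rbp7 and Cthrc1, 2.52 and 3.04, were below the filter on low signals.

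**Figure D3:**
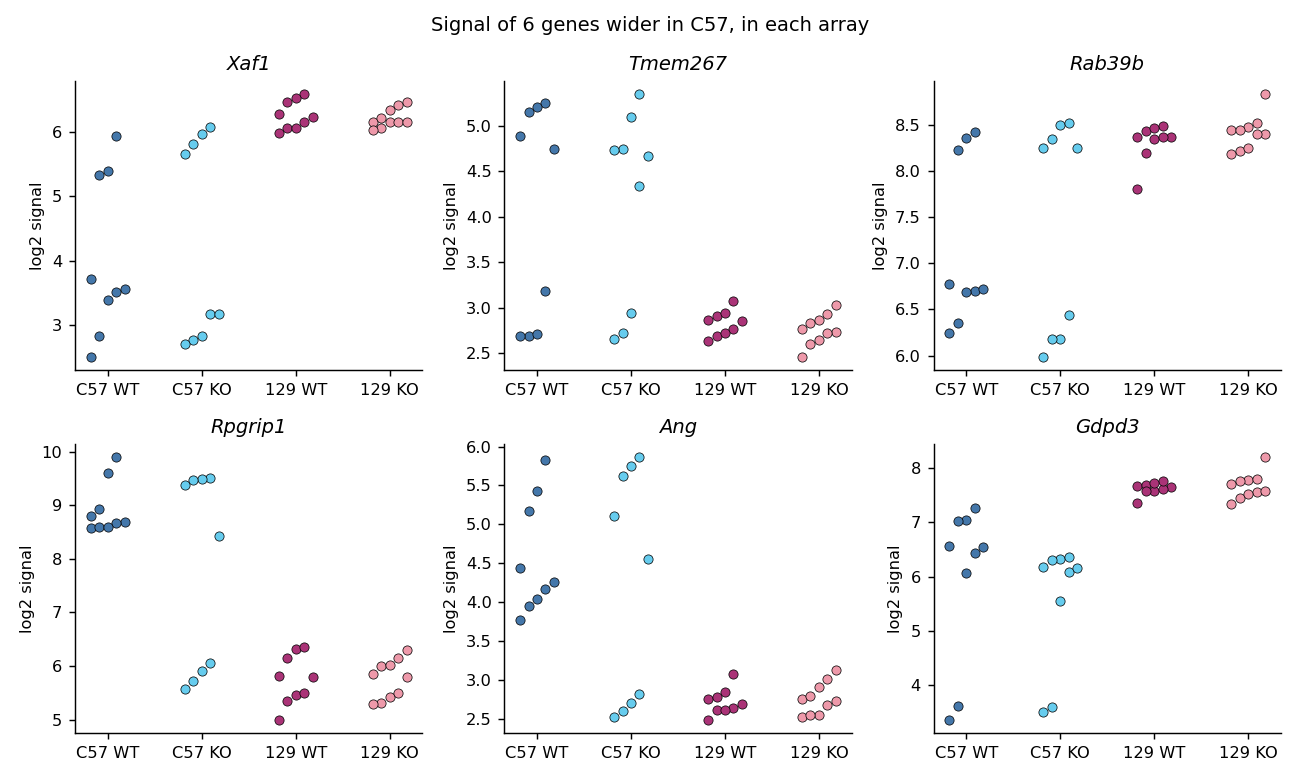
Signal (log2) of Xaf1, Tmem267, Rab39b, Rpgrip1, Ang and Gdpd3 in each array, by group. The low arrays of Tmem267, Rpgrip1 and Ang and the high arrays of Xaf1 and Rab39b lie at or near the level of the 129 arrays, and the 4 low arrays of Gdpd3 lie far below it.

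The 82 genes were then described by 2 features that were not inputs to the test of spread. The first is still tied to it, since genes this wide reach a fixed difference of means more easily. The shares of all genes given beside it were not matched for SD. The strain means differed by at least 0.5 for 55 of them, 67.1%, against 132 of all 13078 genes, 1.01%. The 129 mean lay in the outer 25% at either end of the C57 range, or beyond it, for 74, 90.2%, against 16.3% of all genes. The direction was mixed, with 129 higher in 37 and lower in 45. For the 7 genes wider in 129 neither count had a member. When genes were kept only if both strain means passed the filter and lay within 0.5 of each other, 11 genes were wider in C57 and 5 wider in 129. In 10 of the 82 genes the 129 mean was below the filter on low signals: Tmem267, Ang, Rbp7, Cthrc1, Mir1931, Rmst, Gm10710, Gm26782, Zfp874a and C030034I22Rik. All but Gm26782, which makes 9, had both 129 group means below it and were tested only through C57, so the direction of their strain difference was fixed by the filter. The 129 mean of the other 72 genes was at or above the filter. The part of low signal in the small 129 SDs of the 10 was not tested.

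The second feature was position. A position was known for 81 of the 82 genes, which form 3240 pairs. Pairs at most 50 tested genes apart on a chromosome numbered 53, which is 1.64% of these, against 0.736% of all pairs of the 13045 tested genes with a position. For the 53 pairs the median absolute correlation of their group-centred signals was 0.831 over the C57 arrays and 0.269 over the 129 arrays. For all 626556 near pairs of tested genes these medians were 0.237 and 0.254, and for the 3061 pairs of wide genes on different chromosomes 0.177 and 0.219. An absolute correlation above 0.7 over C57 was reached by 46 of the 53 near pairs, by 16 of the 126 farther pairs of a chromosome and by 5 of the 3061 others, and by 1.71% of all near pairs of tested genes. Over 129 it was reached by 0 of the 53, 3 of the 126 and 34 of the 3061, and by 3.20% of all near pairs of tested genes. These are descriptions over 18 and 19 arrays, and the genes were chosen as wide in C57. The 53 pairs are also not separate observations, because many combine the same few genes. Ang, Cdhr1, Gm26782, Rpgrip1, Slc39a2, Supt16 and Ttc5 of chromosome 14 were all paired with each other. Ocel1, Plvap, Slc27a1 and Slc5a5 of chromosome 8 were as well. Pla2g4e and Tmem87a on chromosome 2 (0.95 in C57, -0.51 in 129; Tmem87a lost its call in 21 of 37 fits that left out 1 array), Fundc2 and Rab39b on the X (0.89 and 0.31), and Mir1931 and Rmst on chromosome 10 (0.88 and 0.11) were such pairs. Pam and Stk25 on chromosome 1 ran opposite to each other, at -0.94 in C57 and 0.45 in 129.

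**Figure D4:**
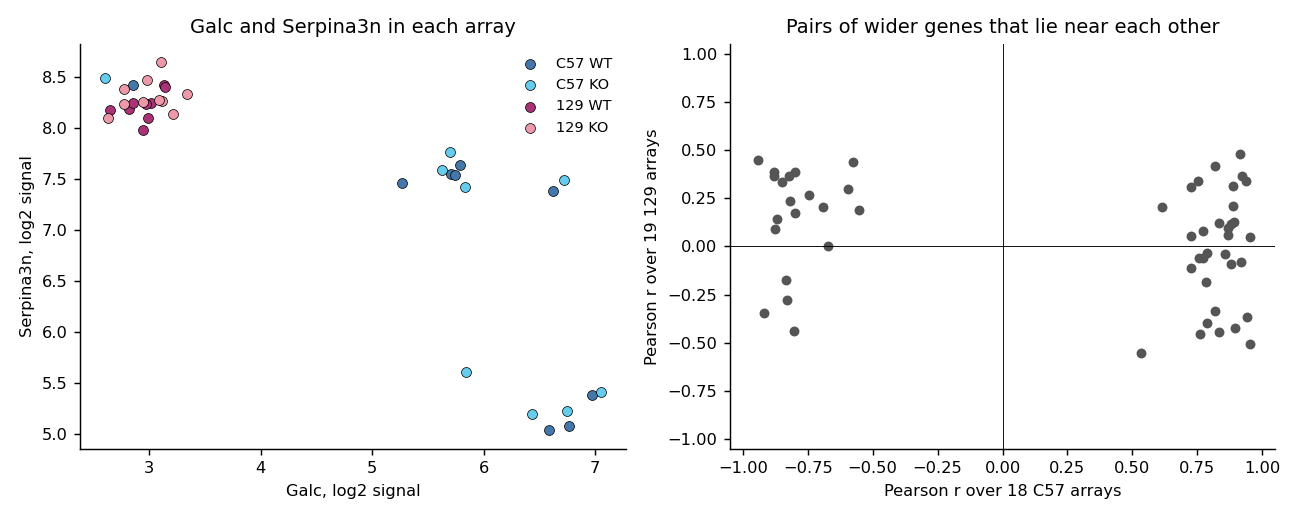
Left, Serpina3n against Galc (log2 signals) in each array; C57 KO 2 and C57 WT 28 lie beside the 129 arrays. Right, the Pearson correlation over 18 C57 arrays against that over 19 129 arrays for the 53 near pairs of genes wider in C57; 46 exceed 0.7 in absolute value over C57 and 0 over 129.

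Chromosome 14 held the most, 11 of its 440 genes tested, or 2.50%, against 0.627% of all genes tested. Rpgrip1, a scaffold of the photoreceptor cilium, and Ang, the ribonuclease angiogenin, lie 8 tested genes apart there. Rpgrip1 was at 5.57 to 6.06 in C57 KO 1, 5, 8 and 10 and at 8.43 to 9.90 in the other 14 C57 arrays, while 129 lay between 5.00 and 6.36. Ang was lowest in the same 4 arrays, at 2.53 to 2.81, with 129 between 2.49 and 3.13 and its mean below the filter, and its other arrays lay between 3.77 and 5.87. The correlation of the pair was 0.95 over C57 and 0.047 over 129. Supt16, a histone chaperone subunit, and Ttc5 ran the other way, with correlations of -0.92 and -0.87 with Rpgrip1 over C57. The 3 further Rpgrip1 probe sets, all dimmer (mean signals of 2.11 to 3.80), had SD ratios of 0.799 to 0.970.

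The low arrays of Rpgrip1 were all KO, so spread was also compared by genotype. Within WT arrays, 15 genes were wider in C57, which is 0.115% of those tested, and none was wider in 129 (910 genes at an unadjusted limma p under 0.05 in both directions; a direct variance ratio called 20 and 1). Within KO arrays, 31 genes were wider in C57, 0.237%, and 8 were wider in 129, 0.0612%. The direction in KO arrays turned in 2 other fits: the direct variance ratio called 25 wider in C57 and 32 wider in 129, and centring apart at the point in number order where all genes together differed most gave 65 and 125. That point left 2 and 7 arrays of C57 KO and 8 and 2 of 129 KO. The genes called wider in both genotypes were 6, which is 40.0% of the WT list and 19.4% of the KO list: Serpina3n, Xaf1, Tmem267, Rab39b, Vmn2r29 and 4833420G17Rik. The WT count lay between 9 and 31 as single arrays were left out, lowest without 129 WT 78 and highest without C57 KO 17. It also moved by over 1.5 times without C57 KO 1, 2 or 9 or C57 WT 25, 29, 33, 34 or 40.

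In C57, 6 genes were wider among KO than among WT arrays, 0.0459%: Rpgrip1, Ang and Gm26782 on chromosome 14, Mir1931 and Rmst on chromosome 10, and Shisa4 on chromosome 1. Mir1931 is the name the platform annotation gives to a probe set near Rmst, a noncoding RNA of neural development, and no mature miRNA was measured by it. It lay at 2.22 to 2.55 in C57 KO 2, 7 and 8, at 4.79 to 6.51 in the other C57 arrays and at 2.05 to 2.60 in 129. Rpgrip1 had an SD of 1.85 in C57 KO and 0.487 in C57 WT, and its difference in mean absolute deviation, KO minus WT, was 1.41 ± 0.13 (SE; limma adjusted p = 7.39e-09). In 129 no gene was called for a spread difference between genotypes by limma, with 1711 genes at an unadjusted p under 0.05 and 161 called by the direct variance ratio. The test of the difference itself, strain by genotype, called 1 gene, 0.00765%, which was Rpgrip1 (1.49 ± 0.19 SE; limma adjusted p = 1.33e-05). All 6 calls in C57 and the call of Rpgrip1 in the strain by genotype test were lost when deviations were taken from the group median. The count of 6 became 10 without C57 WT 28, and the count of 1 reached 5 without C57 KO 9.

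The side nearer to 129 was also counted array by array. Over the 15 genes with 2 levels of which 1 lay near the 129 mean, single C57 arrays were on the 129 side for between 3 (C57 KO 3) and 11 genes (C57 KO 2 and 8), with a median of 7. In 5 of the 15 genes the 129 side was the one with more C57 arrays. Most arrays were counted there by definition, so these counts are no measure of how like 129 an array was.

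The 7 genes wider in 129 were Hsd3b3, Dbp, Ciart, Mettl16, Sin3b, Rrp36 and Rhot1. Dbp and Ciart belong to the circadian clock: Dbp is a transcription factor of the PAR bZIP family whose level swings over the day, and Ciart is a repressor of the CLOCK and ARNTL activator pair. That pair drives many rhythmic genes through E-boxes of the form CACGTG. Dbp had lowest, median and highest signals of 8.41, 9.16 and 9.68 in 129 WT and 8.54, 9.09 and 9.82 in 129 KO. In C57 WT they were 8.98, 9.18 and 9.45, and in C57 KO 8.71, 8.87 and 9.10. Its SD was 0.443 in 129 and 0.160 in C57, and the difference in mean absolute deviation, C57 minus 129, was -0.26 ± 0.05 (SE; limma adjusted p = 0.00123). For Ciart the SDs were 0.380 and 0.152 and the difference -0.23 ± 0.04 (SE; limma adjusted p = 0.00136). With the median as centre both calls were lost (limma adjusted p = 0.0621 for Dbp and 0.0759 for Ciart), and with squared deviations that of Dbp was lost (0.0660). Of the 7 genes, Hsd3b3 alone was kept with the median, and its call was lost with the mean of its probe sets (0.445).

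The spread of Dbp and Ciart followed the sample numbers. Each group was divided in the order of its numbers where Gprin3 and Malat1 differed most, which gave 4 and 5 arrays of C57 WT, 5 and 4 of C57 KO, 5 and 4 of 129 WT, and 5 and 5 of 129 KO. The labels give no batch, and this division into array sets was made from the data. In 129 WT, Dbp lay between 9.16 and 9.68 in the lower-numbered arrays and between 8.41 and 8.77 in the higher-numbered ones, and in 129 KO between 9.28 and 9.82 and between 8.54 and 8.91, with no overlap. In C57 the 2 sets overlapped in both genotypes. The mean shift from lower to higher numbers was -0.77 for Dbp and -0.60 for Ciart in 129, and -0.044 and -0.0031 in C57. Other clock genes shifted more in C57: Hlf by 0.43 there and by 0.26 in 129, Per3 by 0.29 and 0.15, and Per2 by -0.30 and -0.12. The shift was larger in size in 129 for 10 of the 18 tested clock genes and in C57 for 8. Arntl, picked after its values were seen like Usp2, Nr1d1, Hlf, Per2 and Per3, encodes the partner of CLOCK and shifted by 0.38 in 129 and by -0.023 in C57. Over 129 arrays the correlation of Dbp was 0.85 with Ciart, 0.91 with Usp2, 0.71 with Nr1d1 and -0.91 with Arntl, and over C57 arrays it was 0.015, 0.46, -0.41 and 0.023.

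With each set centred on its own mean, the SD of Dbp was 0.193 in 129 and 0.165 in C57, and of the 7 genes Hsd3b3 alone was still wider in 129. Mettl16, an RNA methyltransferase, shifted the other way, from 5.59 to 6.02 in lower-numbered 129 WT arrays to 6.54 to 6.65 in higher-numbered ones. A second Mettl16 probe set (mean signal 4.78) was not wide, with SDs of 0.170 in 129 and 0.157 in C57. Hsd3b3, a steroid dehydrogenase, had SDs of 0.540 in 129 and 0.231 in C57, and of 0.513 and 0.215 within sets. Sin3b, Rrp36 and Rhot1 had SDs of 0.281, 0.216 and 0.214 in 129. The other Sin3b probe sets had SD ratios, C57 over 129, of 0.333, 0.503, 1.06 and 1.20. For the other Rhot1 probe sets, all dimmer, the ratios were 0.931 and 1.17, and for the second Dbp probe set 0.458. Sin3b lost its call without 129 KO 54 or 129 WT 76, 77 or 79, and Rhot1 without 129 WT 77, 78 or 79. The part of hour of day, tissue collection or hybridisation in these shifts was not tested. Of 18 tested clock genes, 38.9% had the larger SD in C57, against 34.9% of all genes, and Dbp and Ciart were the only ones called.

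**Figure D5:**
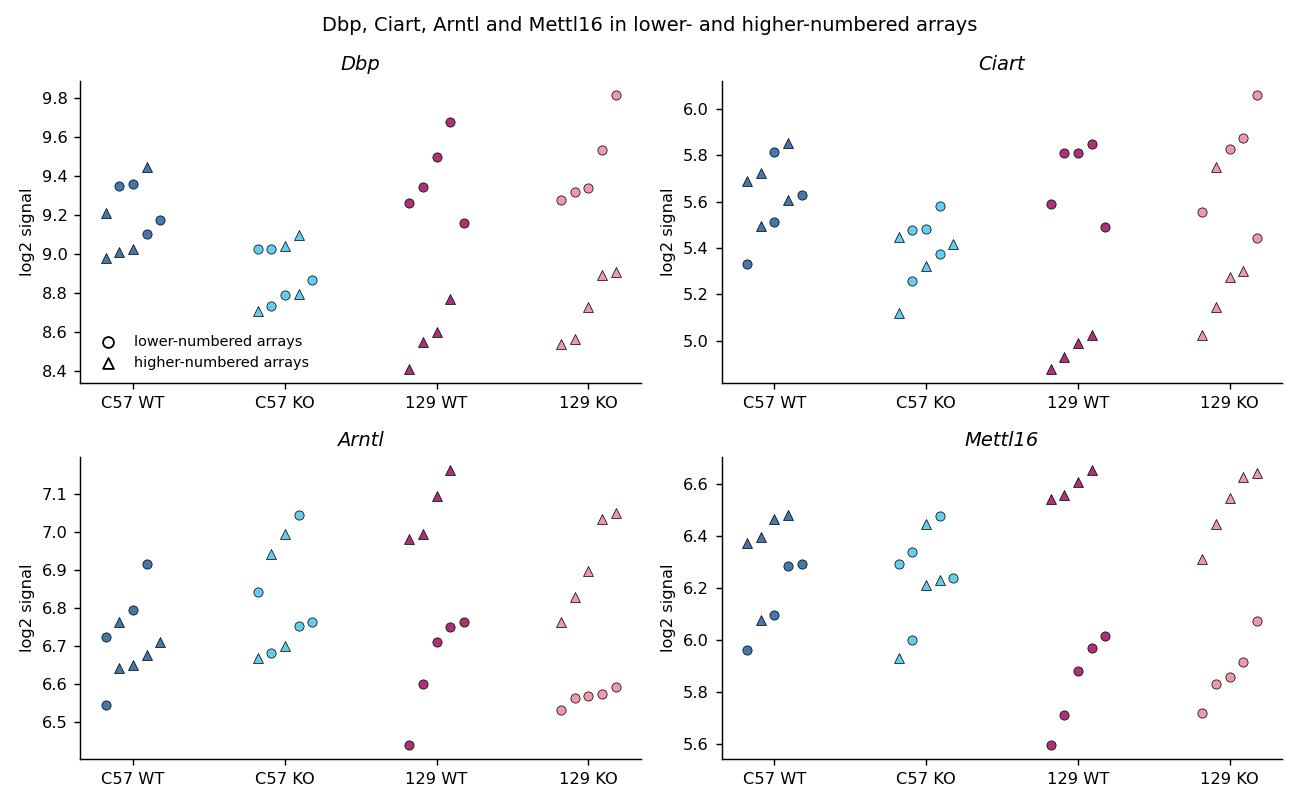
Signal (log2) of Dbp, Ciart, Arntl and Mettl16 in each array, by group, with circles for the lower-numbered and triangles for the higher-numbered arrays of a group. In 129 WT and 129 KO the circles and triangles of Dbp, Arntl and Mettl16 do not overlap, while in C57 they do.

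The promoters of Dbp and Ciart are shown because both genes moved together over the 129 arrays. Each sequence runs from 250 bases before to 50 after the start of the gene on its own strand, from RefSeq on the mouse build GRCm38.p6, and capitals mark CACGTG, which reads the same on both strands.
Ciart, chr3:95882179-95882478, minus strand: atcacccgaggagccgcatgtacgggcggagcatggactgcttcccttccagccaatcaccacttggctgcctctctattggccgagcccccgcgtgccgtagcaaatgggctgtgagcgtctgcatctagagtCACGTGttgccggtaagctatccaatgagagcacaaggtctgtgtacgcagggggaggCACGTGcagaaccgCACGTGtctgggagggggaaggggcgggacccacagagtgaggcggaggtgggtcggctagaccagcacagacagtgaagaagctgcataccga
Dbp, chr7:45704997-45705296, plus strand: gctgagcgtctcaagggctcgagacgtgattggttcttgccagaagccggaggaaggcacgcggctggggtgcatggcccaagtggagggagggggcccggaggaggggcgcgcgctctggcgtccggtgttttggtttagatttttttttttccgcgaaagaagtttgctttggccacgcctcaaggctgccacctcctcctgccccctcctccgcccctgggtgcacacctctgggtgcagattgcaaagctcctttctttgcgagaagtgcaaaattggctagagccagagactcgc
The Ciart window holds the motif 3 times and the Dbp window 0 times. Of 32851 promoter windows of this length, 7.15% hold it at least once and 29 hold it at least 3 times.

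Gene groups with no called member still differed in how their SDs compared. Over all genes tested, 34.9% had the larger SD in C57. Of 16 tested genes of oligodendrocytes and myelin, 15 had the larger SD in C57 (93.8%), with a median SD of 0.308 in C57 and 0.215 in 129. The exception was Gal3st1. Ermn, a cytoskeletal protein of myelinating cells, had lowest, median and highest signals of 6.23, 6.77 and 7.33 in C57 WT and 5.97, 6.62 and 7.23 in C57 KO, against 5.98, 6.40 and 6.59 in 129 WT and 5.95, 6.24 and 6.73 in 129 KO. Its SDs were 0.450 and 0.218 (limma adjusted p = 0.0638), and those of Mog, a protein of the outer myelin surface, 0.369 and 0.228. The mean of the 16 group-centred signals had an SD of 0.216 in C57 WT, 0.282 in C57 KO, 0.136 in 129 WT and 0.171 in 129 KO. Among the C57 arrays it was lowest in C57 KO 3 and highest in C57 KO 1. In whole tissue, more cells of a type and more RNA per cell cannot be told apart, nor can the share of white matter in a dissection. The 16 striatum markers, as a sign of the tissue taken, had score SDs of 0.272, 0.324, 0.180 and 0.267 in the same order, and their part was not tested.

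Of 19 tested genes of the glucocorticoid response, 15 had the larger SD in C57 (78.9%), with medians of 0.232 and 0.192. This list also holds the receptor genes Nr3c1 and Nr3c2. Here 1 array stood out: the mean group-centred signal of the list was 0.611 in C57 KO 17, and the other 36 arrays lay between -0.154 and 0.129. Fkbp5, a chaperone of the glucocorticoid receptor, was at 8.19 in that array, while the other 17 C57 arrays lay between 6.80 and 7.46 and the 129 arrays between 6.83 and 7.29. Sgk1, a kinase gene induced by corticosteroids, was at 9.46 there and at 7.57 to 8.27 in the other C57 arrays. Without C57 KO 17, 12 of the 19 genes had the larger SD in C57, and the score SD of C57 KO was 0.0818 in place of 0.242. Ermn, Mog, Fkbp5 and Sgk1 were picked after their values were seen.

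With all arrays in, housekeeping groups had fewer such genes than the 34.9% of all genes tested. Of 28 respiratory chain genes 2 had the larger SD in C57 (7.14%), with median SDs of 0.0940 and 0.150, and of 18 ribosomal protein genes 2 (11.1%), with 0.0872 and 0.159. Of 16 neuronal genes 3 did (18.8%), with 0.120 and 0.183. These counts moved with the 4 far arrays: without them they were 14 of 28, 16 of 18 and 5 of 16. The share of all genes was then 53.3%, so the respiratory chain count lay near it and the ribosomal count above it. The myelin count was 16 of 16 and the glucocorticoid count 18 of 19 without them. None of the 13 genes of the major histocompatibility complex that were tested was called, and 46.2% had the larger SD in C57. No call was made either in the lists of sex-linked genes (8 tested), early genes (29), heat shock (16), ER stress (27), hippocampus (15), thalamus and hypothalamus (20), cortical layers (18), choroid plexus (10), astrocytes (17), microglia (17), blood vessels (20), blood (2), pituitary (3) and neuropeptides (21). Of all genes tested, 0.627% were called wider in C57 and 0.0535% wider in 129. Lists this short would mostly hold no call at those shares, so the absence of calls says little about them.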

How the data were processed

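Temporal lobe RNA was measured on 37 Affymetrix arrays. The authors deposited log2 probe set signals, normalized between arrays before deposit. MAS5 and GCRMA are named in the submitters' processing notes without version or role, so which made these values is not known. Array medians ran from 4.30 to 4.36, so no rescaling was done, and the number of arrays limits the precision.

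Of 45101 probe sets, 34945 had 1 gene symbol in the platform annotation. Those with several symbols (932) or none (9160) and 64 controls were left out. Each of 18193 genes was taken by its brightest probe set. Probe sequences were not checked against strain variants. A gene was tested when 1 group mean reached the 40th percentile of probe set means (3.60), which left 13078. Chromosomes and gene order came from the RefSeq table of GRCm38.p6.

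The group mean was subtracted from each array, and absolute deviations, scaled for group size, were fitted over all 37 arrays by group in limma 3.58.1 under R 4.3.3. P-values were 2-sided and adjusted by Benjamini and Hochberg's method across the 13078 genes, with calls below 0.05. Single values were tested by permutation in SciPy 1.17.1, exactly or with 100000 resamples. The test script was tested on simulated data.

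The members, lists and genes were chosen with earlier results of these data known. Named were Galc, Cap1, Serpina3n, Wfs1 and sex-linked controls; the 12 and 8 called genes with the largest differences wider in C57 and in 129; the 10 and 5 genes of largest gap; up to 3 called genes a list; and the 5 genes most like each of the first 3. Clone names were skipped. Other genes named, such as partners of pairs, list members and genes of the genotype tests, were picked after their values were seen. Alternatives changed the centre, deviation, filter, probe set choice, normalization, array numbers and arrays used. No sample column was left unmapped.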

Additional observations from a re-analysis of the deposited data

Results flagged for a closer look

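In groups of 9 or 10 arrays, an array was listed here when its gap to the nearest array was a large share of the whole range by Dixon's test at 95%. This was tested 124 times, in the named genes and the array distances, and met 16 times. Many of these genes were named for large gaps or a large spread in these same arrays. The count can therefore not be set against the 1 in 20 that chance alone gives.

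In C57, the low Galc arrays were listed in both genotypes, C57 WT 28 at 2.85 with the next array at 5.26, and C57 KO 2 at 2.60 with the next at 5.62. Nmnat1 was at 3.65 in C57 KO 2. Kcnj9 was at 6.67 in C57 WT 37, Rhot1 at 8.31 in C57 WT 33, and Wfs1 at 9.73 in C57 WT 42.

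In 129, several of the listed values came from the arrays with large distances. Array 129 WT 73 had a distance from its group mean of 0.276 and a low Rab39b of 7.81. Array 129 KO 59 had the highest Gdpd3 of its group, 8.21, the highest Rab39b, 8.83, the highest Pmch, 6.60, and the lowest Kcnj9, 8.44. In 129 WT 72, Ttr was at 12.8, with the next array at 7.57, and Gdpd3 at 7.36. Pmch, a hypothalamic neuropeptide precursor, was at 6.02 in 129 WT 76, and Avp, the vasopressin precursor, at 5.60 in 129 KO 50.

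The difference in spread between KO and WT arrays of Rpgrip1 was 1.49 larger in C57 than in 129 by the strain by genotype test (limma adjusted p = 1.33e-05, 4 of 9 C57 KO arrays low and 0 of 9 C57 WT arrays).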

How the results depend on the processing

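No paired analysis was possible because sample numbers are not shared between groups. The cause of each change was not tested, except where fewer genes or arrays were used. Counts of calls are for C57 against 129 (89), its WT arrays (15), its KO arrays (39), KO against WT in C57 (6) and in 129 (0), and strain by genotype (1), in this order where several are given. With the group median as centre they were 8, 2, 3 and 0 for the first 4 and 0 for the last. Squared deviations gave 21, 2 and 17 for the first 3. A variance ratio gave 457 for the first, and 0 and 161 for KO against WT in C57 and 129. A trended, robust fit gave 0 for strain by genotype. A filter at the 60th percentile gave 9 in WT arrays and 3 for KO against WT in C57. Keeping genes whose strain means both passed the filter and also lay within 0.5, which changes 2 choices together, gave 16, 0, 3 and 0, and 0 for the last. The mean of probe sets gave 36 in WT arrays, and 10 and 2 for KO against WT in C57 and 129. Every probe set gave 190, 42, 87 and 10 for the first 4. Dividing each group in number order where all genes together differed most (5 and 4 arrays of C57 WT, 2 and 7 of C57 KO, 5 and 4 of 129 WT, 8 and 2 of 129 KO) and centring the sides apart gave 41 in WT arrays, 190 in KO arrays (65 wider in C57 and 125 in 129, against 31 and 8), and 11, 308 and 6 for the last 3. The array sets set by Gprin3 and Malat1, centred apart and chosen after seeing the data, gave 26 in WT arrays and 14, 4 and 2 for the last 3. Removing the first residual component gave 37 in WT arrays, 30 wider in C57 and 7 in 129. Leaving out the 4 farthest arrays, also chosen after seeing the data, gave 2 for strain by genotype.

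The array distance difference of 0.00158 turned to -0.000197 with no filter, -0.000213 with the 60th percentile, -0.0101 with both strain means above the filter and within 0.5, -0.000117 with the mean of probe sets, -0.000319 with every probe set, -6.33e-05 after quantile normalization and -0.00643 with mean absolute deviations. It was 0.0209 without the 4 farthest arrays. The share of genes with the larger SD in C57, 34.9%, was 37.8% with no filter, 31.5% with the 60th percentile, 34.0% with both strain means above the filter and within 0.5 or with array sets centred apart, 32.8% after quantile normalization, 33.4% after median centring, 43.3% without the first component and 53.3% without the 4 farthest arrays. Genes on 2 levels in C57 and 129 (23 and 3) were 38 and 6 at a gap of 0.75, 11 and 0 at 1.5, and 8 and 1 with array sets centred apart. The difference of Mettl16 turned to 0.029 with array sets centred apart.

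With 1 array left out, the counts of calls ran from 75 to 113, 9 to 31, 28 to 43, 4 to 10, 0 to 0 and 1 to 5, the distance difference from -0.0025 to 0.0117, the share from 31.7% to 44.4%, and the genes on 2 levels from 21 to 25 and 3 to 4. The lowest share was without C57 KO 10 and the highest without 129 KO 59.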
